A study of Mus musculus with 12 samples.

Results

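The 7 adrenergic receptor genes Adra1a, Adra1b, Adra1d, Adra2a, Adra2b, Adra2c and Adrb1 were described across 12 mouse brain libraries. They were taken by gene symbol from a table of 55385 genes, and all 7 were found once. All 7 were also among the 21393 genes that were tested, those whose FPKM averaged 0.1 or more over all libraries. FPKM is the number of fragments per kilobase of transcript, scaled to the mapped fragments of a library, so that levels of different genes can be set side by side. The remaining β receptor genes are not described here.

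Whole brains of 12 male wild-type C57BL/6J mice, bought at 8 weeks of age, were sequenced as poly(A) RNA, with 3 mice in each of 4 groups. The C_W mice had water and no stress, and the C_O mice had krill oil, an oil rich in omega-3 phospholipids, at 200 mg/kg per day for 5 weeks and no stress. The MS_W mice had water and chronic unpredictable mild stress (CUMS), a series of changing mild stressors, for 4 weeks, and the MS_O mice had krill oil as in C_O together with CUMS. Each mouse gave 1 library, named after the group and the number of the mouse (MS_W95, for example).

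Noradrenaline is released in the forebrain by fibers of the locus coeruleus, a small nucleus of the hindbrain, and acts together with adrenaline on receptors that each couple to a heterotrimeric G protein. The α1 receptors (Adra1a, Adra1b and Adra1d) signal through Gq and phospholipase C, the α2 receptors (Adra2a, Adra2b and Adra2c) through Gi and Go, and the β1 receptor (Adrb1) through Gs and adenylyl cyclase. Adra2a and Adra2c also act as autoreceptors that limit the release of noradrenaline. In the brain this system is known for its part in arousal, attention and the response to stress.

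The genes of the 3 classes differ in structure. On build GRCm38, Adra1a (ENSMUSG00000045875) lies on chromosome 14 from 66635251 to 66771168, Adra1b (ENSMUSG00000050541) on chromosome 11 from 43774606 to 43901210 and Adra1d (ENSMUSG00000027335) on chromosome 2 from 131545850 to 131562283. Every annotated coding transcript of these α1 genes had at least 2 exons. Adra2a (ENSMUSG00000033717) lies on chromosome 19 from 54044151 to 54048982, Adra2b (ENSMUSG00000058620) on chromosome 2 from 127363208 to 127367221 and Adra2c (ENSMUSG00000045318) on chromosome 5 from 35278319 to 35281763. Adrb1 (ENSMUSG00000035283) lies on chromosome 19 from 56722199 to 56733113. In Adra2b, Adra2c and Adrb1 every coding transcript had 1 exon, and in Adra2a there were transcripts of 1 and of 2 exons. The longest coding transcripts held between 453 codons (Adra2b) and 562 codons (Adra1d). Adra1d shared 147 exon bases with the antisense gene Gm14285 (FPKM at most 1.08), and it is not stated whether strand was used in the estimates, so reads from this stretch may not be told apart.

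RefSeq start sites with 300 bases of sequence (250 before and 50 after the start, GRCm38.p6) were available for Adra1b (2 starts), Adra2a, Adra2b, Adra2c and Adrb1. The windows of Adra1b, Adra2a and Adra2b, which met the criteria for MS_W against C_W given below, and of Adrb1 are shown on the strand of the gene, with matches on either strand in capitals to the TATA box (TATAAA), the E-box (CACGTG), the GC box (GGGCGG), the core of the cAMP response element (TGACGT) and the CCAAT box (CCAAT). A match on the other strand is seen as its reverse complement, and no matches overlapped in these windows.
Adra1b (downstream start, chr11:43836440-43836739, - strand): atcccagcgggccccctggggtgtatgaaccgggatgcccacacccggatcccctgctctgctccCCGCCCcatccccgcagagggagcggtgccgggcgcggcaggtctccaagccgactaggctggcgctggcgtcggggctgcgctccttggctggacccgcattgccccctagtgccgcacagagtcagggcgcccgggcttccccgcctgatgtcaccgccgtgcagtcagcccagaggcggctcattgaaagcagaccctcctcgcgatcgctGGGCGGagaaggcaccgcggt
Adra2a (chr19:54045009-54045308, + strand): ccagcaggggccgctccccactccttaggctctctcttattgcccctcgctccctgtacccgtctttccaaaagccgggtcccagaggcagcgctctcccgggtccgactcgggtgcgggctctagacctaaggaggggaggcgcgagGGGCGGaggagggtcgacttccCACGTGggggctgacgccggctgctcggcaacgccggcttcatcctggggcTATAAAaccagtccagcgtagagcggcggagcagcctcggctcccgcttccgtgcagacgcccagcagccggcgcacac
Adra2b (chr2:127362929-127363228, + strand): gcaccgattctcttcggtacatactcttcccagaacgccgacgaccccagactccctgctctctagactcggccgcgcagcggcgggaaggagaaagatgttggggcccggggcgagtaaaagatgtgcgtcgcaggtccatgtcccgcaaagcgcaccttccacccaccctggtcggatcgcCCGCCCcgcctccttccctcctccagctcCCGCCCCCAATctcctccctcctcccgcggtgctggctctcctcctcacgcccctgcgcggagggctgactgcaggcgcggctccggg
Adrb1 (chr19:56721867-56722166, + strand): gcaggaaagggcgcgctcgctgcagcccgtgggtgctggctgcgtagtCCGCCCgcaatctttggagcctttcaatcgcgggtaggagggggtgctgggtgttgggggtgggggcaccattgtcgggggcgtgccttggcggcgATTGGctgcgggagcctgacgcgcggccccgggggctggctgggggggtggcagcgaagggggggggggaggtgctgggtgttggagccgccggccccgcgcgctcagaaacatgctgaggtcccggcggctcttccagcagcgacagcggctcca
Of 32851 mouse promoter windows of this length, 13.6% held the TATA box, 7.2% the E-box, 35.7% the GC box, 7.5% the cAMP response element core and 37.4% the CCAAT box. The Adra2a window held 1 match each to the TATA box, the E-box and the GC box. The Adrb1 window held 1 GC box and 1 CCAAT box, the Adra2b window 2 GC boxes and 1 CCAAT box, and the Adra1b window 2 GC boxes. G and C made up 71.3%, 68.7%, 68.0% and 72.3% of the Adra1b, Adra2a, Adra2b and Adrb1 windows, against a median of 52.7% over all promoter windows. None of the 4 windows shown held the cAMP response element core. The Adra2c window was less rich in G and C (51.3%), as was that of the upstream Adra1b start (42.3%). These matches are letters in a window, and binding was not measured.

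The estimated counts, which restate coverage and are not numbers of reads, totalled between 50912906 and 75678721 per library, with a median of 59331216. The libraries C_O72 and MS_W95 differed from the rest, with a Pearson's r of log2(FPKM + 1) across genes of 0.970 between them, at most 0.937 with any other library, and at least 0.959 among the other 10. The 2 libraries also differed in markers of brain regions. The summed FPKM of 6 cerebellum markers was 250.4 in C_O72 and 913.2 in MS_W95 and at most 18.1 in the other 10, and that of 6 hindbrain markers was 71.2 and 26.4 against at most 0.138. Among the hindbrain markers, Hoxa5, Hoxb3 and Hoxc4 were listed at an FPKM of 0.0001, the value given to genes without an estimate, in all 10 other libraries, although the tissue is labelled as whole brain. Results are therefore given again for the 10 libraries that remain without this pair. In these, C_O and MS_W hold only 2 mice each. In bulk tissue, fewer cells of a type and less RNA per cell cannot be told apart.

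Adra1d was the most abundant member, and Adra2b was close to the limit of detection. The mean FPKM over the 12 libraries was 8.15 ± 5.26 (SD, n = 12) for Adra1d, 5.27 ± 2.45 for Adrb1, 5.04 ± 1.94 for Adra2c, 4.83 ± 1.78 for Adra1b, 4.56 ± 1.99 for Adra2a, 0.787 ± 0.262 for Adra1a and 0.182 ± 0.131 for Adra2b. Only the last neighbors in this order, Adra1a and Adra2b, had ranges that did not overlap. Adra1d was above Adrb1 in 10 of 12 libraries, Adrb1 above Adra2c in 6 of 12 and Adra2a above Adra1a in 12 of 12. By the median, Adra2a moved to the third place with an FPKM of 5.15. Among the genes tested, 75.1% had a lower mean FPKM than Adra1d and 32.6% a lower one than Adra1a. The estimated counts behind these values were between 170 and 2676 per library for Adra1a, Adra1b, Adra1d, Adra2a, Adra2c and Adrb1, but only 4 to 103 for Adra2b, whose FPKM in the C_W mice lay below the filter of 0.1.

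**Figure D1:**
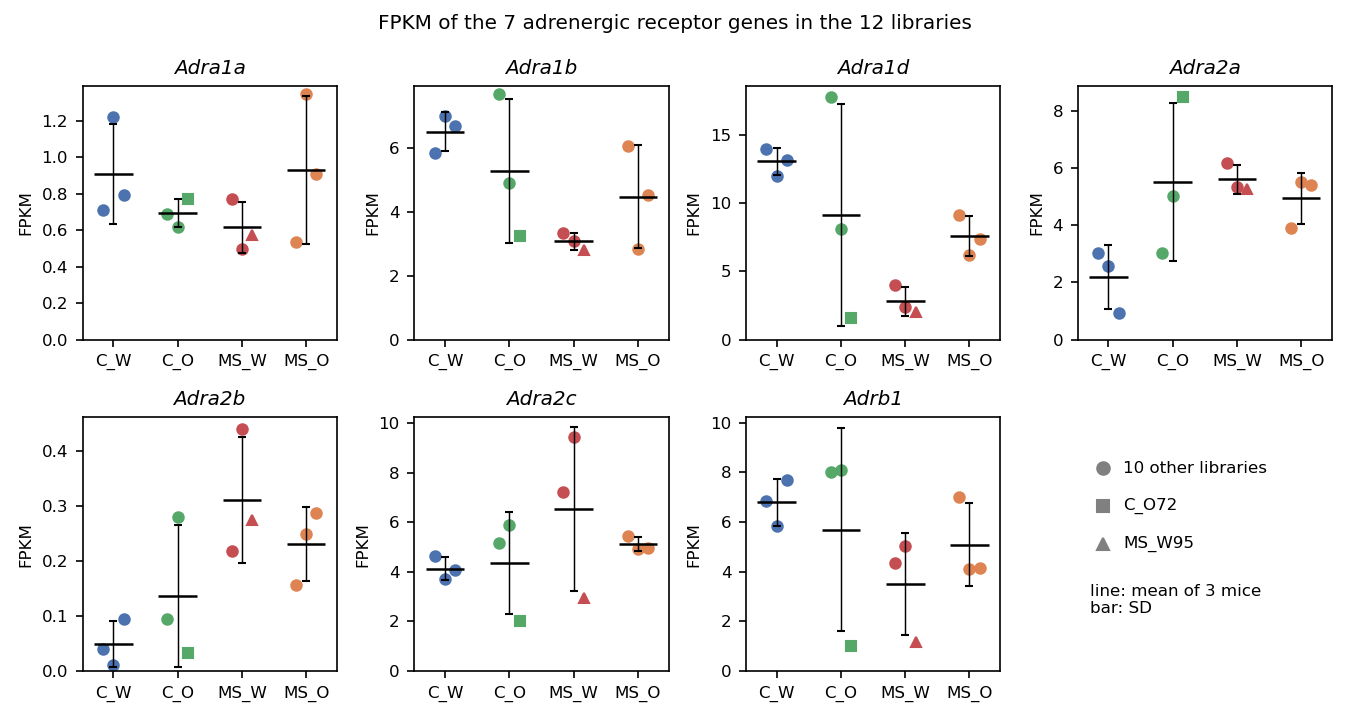
FPKM of each adrenergic receptor gene (vertical axes, each from 0) in the C_W, C_O, MS_W and MS_O mice, with points for mice, horizontal lines for means and bars for SD of 3 mice. Adra1d sits at 12.02 to 14.0 in C_W and at 1.99 to 4.01 in MS_W, and the C_O72 library (square) has the lowest Adra1d, Adra2c and Adrb1 and the highest Adra2a of all libraries.

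To examine whether CUMS went with a change of the receptors in mice without krill oil, the MS_W and C_W groups were compared. The α1 receptor genes Adra1b and Adra1d were lower and the α2 receptor genes Adra2a and Adra2b higher in MS_W. These 4 of 7 members met the study's criteria for a differentially expressed gene (DEG) (an unadjusted p under 0.05, here of limma, together with a log2 ratio of mean FPKM above 1 in either direction), where 4.59% of all genes tested did. The groups did not overlap for 5 of 7 members, against 24.6% of all genes tested. The limma test, which fits 1 linear model per gene and shares the estimate of the spread across genes, gave no member an adjusted p (Benjamini-Hochberg over all genes tested) under 0.05, which 1 gene reached in all (0.00467%). On the estimated counts, edgeR gave 0 such members, and 1 of 21393 genes tested passed. DESeq2 gave 1 such member, Adra1d, and 389 of 21393 genes tested passed.

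Adra1d, an α1 receptor that is found in the cortex and hippocampus, had the largest difference of the members on the scale of log2(FPKM + 1), while by the ratio of mean FPKM the low Adra2b differed more. Its FPKM was 14.0, 12.02 and 13.2 in C_W1, C_W64 and C_W70 and 4.01, 2.41 and 1.99 in MS_W31, MS_W75 and MS_W95. Every MS_W mouse was thus far below every C_W mouse. The group means were 13.1 ± 1.00 in C_W and 2.80 ± 1.07 in MS_W (SD, n = 3), a ratio of 0.214, and the log2 fold change of FPKM + 1 (log2FC) was -1.92 (SE 0.553, 95% confidence interval -3.15 to -0.70, limma adjusted p = 0.306).

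Adra1b, the other α1 receptor with a clear signal, had an FPKM of 5.84, 7.00 and 6.68 in C_W and 3.34, 3.08 and 2.80 in MS_W. The 2 groups were again separate, with a narrow spread in each. The means were 6.51 ± 0.601 and 3.07 ± 0.271, a ratio of 0.472, and the log2FC was -0.88 (SE 0.262, limma adjusted p = 0.318). Adra1a, the third α1 receptor, did not follow this pattern. Its FPKM was 0.710, 1.22 and 0.791 in C_W and 0.774, 0.4995 and 0.574 in MS_W, so that the groups overlapped, and the log2FC of -0.23 had a 95% confidence interval from -0.58 to 0.12.

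Among the α2 receptors, Adra2a, the main inhibitory autoreceptor of noradrenergic neurons, had an FPKM of 3.04, 2.58 and 0.918 in C_W and 6.19, 5.36 and 5.27 in MS_W. Every MS_W mouse was above every C_W mouse, and C_W70 was the lowest of all 12 libraries. The means were 2.18 ± 1.12 and 5.60 ± 0.507, a ratio of 2.57, and the log2FC was 1.12 (SE 0.327, limma adjusted p = 0.308). Without C_W70 the criteria were no longer met by Adra2a.

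Adra2b had an FPKM of 0.0402, 0.0118 and 0.0950 in C_W and 0.219, 0.439 and 0.274 in MS_W. These values rested on 14, 4 and 33 estimated counts in C_W and on 57, 103 and 78 in MS_W, so the groups were separate at a very low level. The ratio of the means was 6.34 and the log2FC, which is small because 1 is added to each FPKM, was 0.32 (SE 0.0947, limma adjusted p = 0.318). Adra2c, an autoreceptor that is also abundant in the striatum, had an FPKM of 4.65, 3.69 and 4.06 in C_W and 7.23, 9.44 and 2.95 in MS_W. The first and second MS_W mice were above all C_W mice, but MS_W95 was below them, and the log2FC of 0.45 had a 95% confidence interval from -0.36 to 1.25.

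Adrb1, the β receptor that predominates in the cortex, had an FPKM of 6.86, 5.83 and 7.70 in C_W and 4.36, 5.02 and 1.16 in MS_W. The groups did not overlap, but MS_W95 was well below the others. The means were 6.80 ± 0.937 and 3.51 ± 2.07, a ratio of 0.516, and the log2FC of -0.92 (SE 0.562, limma adjusted p = 0.570) did not meet the DEG criteria.

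In the 10 libraries without C_O72 and MS_W95, 5 members met the DEG criteria in this comparison, where 5.81% of all genes tested did, since Adra2c was added. The log2FC of Adra2c was then 0.86 (SE 0.128, limma adjusted p = 0.0227) and that of Adra1d -1.77 (SE 0.295, limma adjusted p = 0.0344). Adra2c and Adra1d were the members past an adjusted p of 0.05, which 1.15% of all genes tested passed. For Adra2c the MS_W library left out, MS_W95 (2.95), was the one below the C_W mice, and the SE with all libraries was 0.362. The log2FC of Adra1b, Adra2a and Adra2b was -0.83, 1.16 and 0.34, near the values from the 12 libraries, and that of Adrb1 was -0.45, against -0.92 with all libraries.

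**Figure D2:**
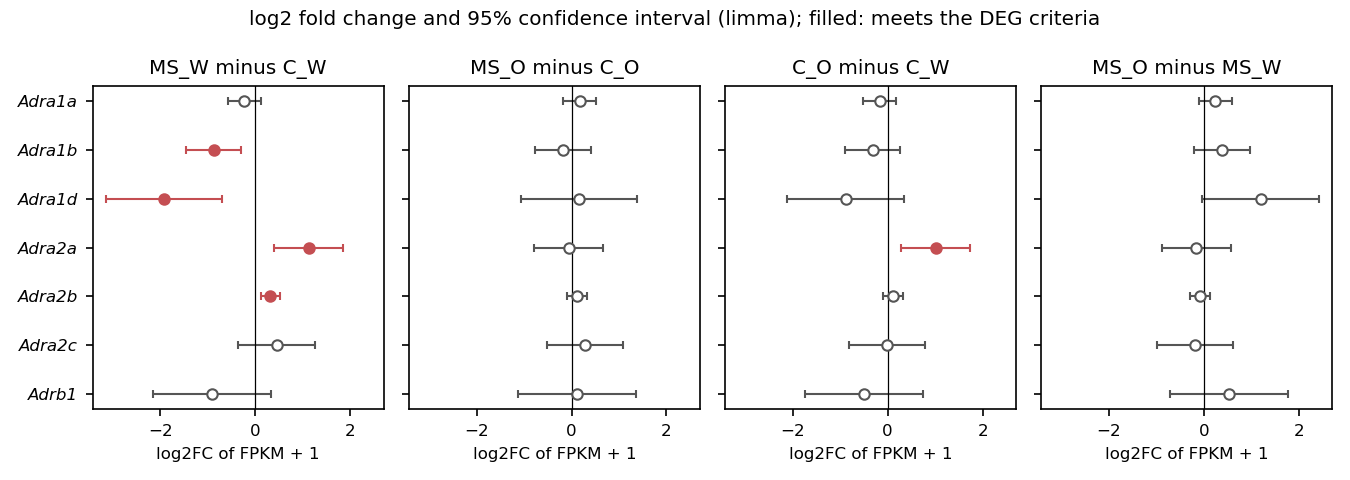
log2FC of FPKM + 1 (horizontal axes) of each member in 4 comparisons, with 95% confidence intervals from limma on 12 libraries and filled red points where the DEG criteria were met. The 4 filled points of MS_W minus C_W are Adra1b at -0.88, Adra1d at -1.92, Adra2a at 1.12 and Adra2b at 0.32, and the intervals of all 7 members span 0 for MS_O minus C_O.

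The members were also summed by class, a summary chosen after the values were seen and given as a description. The α1 genes had a summed FPKM of 20.6, 20.2 and 20.6 in the C_W mice and 8.12, 5.98 and 5.36 in the MS_W mice. For the α2 genes the sums were 7.73, 6.28 and 5.08 in C_W and 13.6, 15.2 and 8.50 in MS_W. Thus the larger class was α1 in every C_W mouse and α2 in every MS_W mouse. The ratio of α1 to α2 was 2.66, 3.22 and 4.07 in C_W, 3.16, 1.22 and 0.527 in C_O15, C_O30 and C_O72, 0.596, 0.393 and 0.630 in MS_W and 1.65, 0.975 and 1.201 in MS_O13, MS_O46 and MS_O78. The 3 MS_O mice lay between the C_W and the MS_W mice, whereas the C_O mice spread over most of the range. The most abundant member was Adra1d in all C_W and MS_O mice, in C_O15 and in C_O30, Adra2c in MS_W31 and MS_W75, and Adra2a in C_O72 and MS_W95. The 7 members together reached an FPKM between 15.0 in MS_W95 and 42.4 in C_O15.

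**Figure D3:**
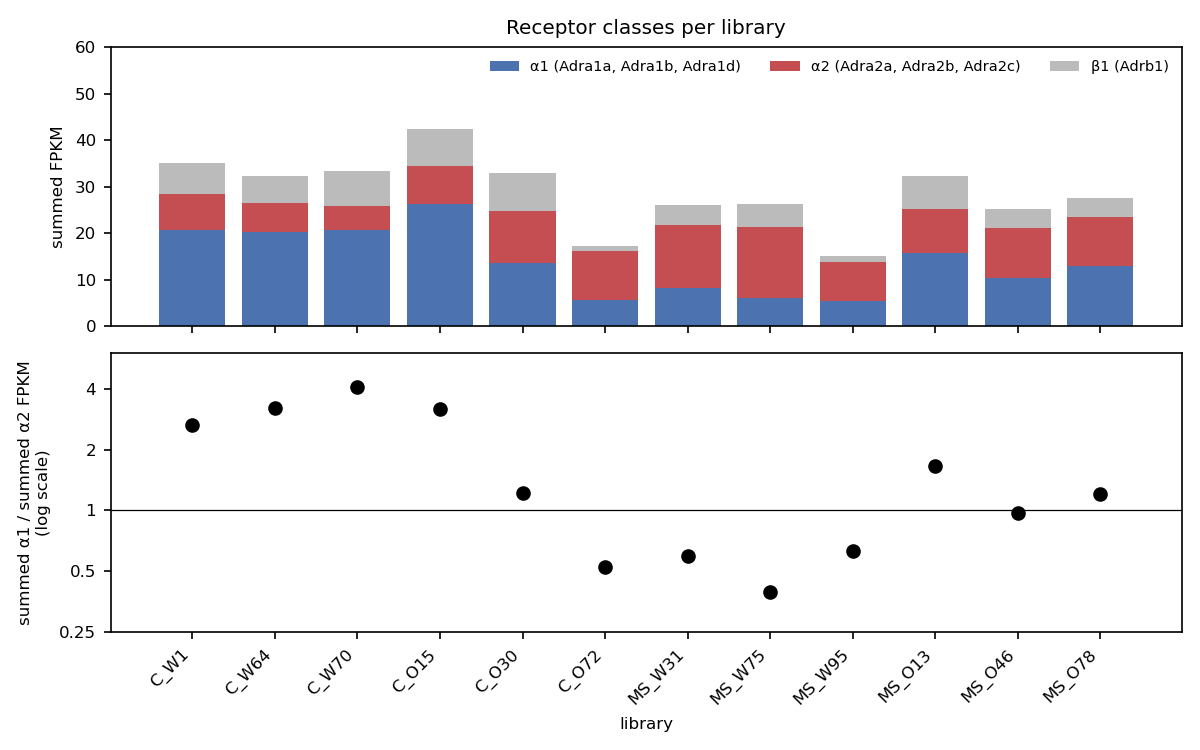
Summed FPKM of the α1, α2 and β1 genes per library (upper plot, stacked bars from 0) and the ratio of summed α1 to summed α2 FPKM (lower plot, log scale, line at 1). The ratio is between 2.66 and 4.07 in the C_W libraries and between 0.393 and 0.630 in the MS_W libraries, and C_O72 has the lowest value of the C_O libraries, at 0.527.

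To examine whether the same differences were found in mice given krill oil, MS_O was compared with C_O. No member met the DEG criteria and no member had groups without overlap, where 3.57% and 12.2% of all genes tested did. By the unadjusted p, 0 of 7 members were under 0.05 with limma, with edgeR and with DESeq2. Of 21393 genes tested, 1899, 1826 and 2248 were under 0.05 with limma, edgeR and DESeq2, so few members would be under it at the same share. The FPKM of Adra1d was 17.8, 8.12 and 1.56 in C_O15, C_O30 and C_O72 and 9.12, 6.23 and 7.39 in MS_O13, MS_O46 and MS_O78. The C_O mice spanned the MS_O mice on both sides, and the log2FC of 0.16 had a 95% confidence interval from -1.06 to 1.39. Adrb1 had an FPKM of 8.02, 8.08 and 0.997 in C_O and 7.00, 4.10 and 4.14 in MS_O, and Adra1b 7.69, 4.89 and 3.24 in C_O and 6.06, 2.84 and 4.52 in MS_O. In both genes C_O72 was the lowest C_O mouse. Adra2a had an FPKM of 3.02, 5.03 and 8.50 in C_O and 3.89, 5.50 and 5.43 in MS_O, with C_O72 the highest of all libraries. The log2FC of Adra2a was -0.06 (95% confidence interval -0.78 to 0.67). Differences of the size seen between MS_W and C_W lay inside the interval for Adrb1 (-1.13 to 1.37), Adra2b (-0.09 to 0.33) and Adra2c (-0.53 to 1.08). They lay outside it for Adra1b, Adra1d and Adra2a, and also for Adra1a (-0.18 to 0.52), whose groups overlapped between MS_W and C_W. This leaves out the error of the MS_W minus C_W values, so it is no test of a difference between oil and water.

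Without C_O72 and MS_W95, the log2FC of MS_O minus C_O turned to -0.62 for Adra1d and -0.61 for Adrb1 (limma adjusted p = 0.389 and 0.335), and to 0.26 for Adra2a and -0.09 for Adra2c. The value of Adra1b was -0.43, with a 95% confidence interval from -1.002 to 0.142 that then held its difference between MS_W and C_W in the same libraries (-0.83). Adrb1 then had groups without overlap, as did 5726 of 21393 genes tested, and its 95% confidence interval reached from -1.06 to -0.15. No member met the DEG criteria in these libraries either, which 916 of 21393 genes tested did.

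The interaction, which tests whether the difference between stressed and unstressed mice itself differed between oil and water, had an unadjusted limma p under 0.05 for 2 of 7 members, against 7.23% of all genes tested. The interaction log2FC was 2.08 (SE 0.782) for Adra1d and -1.18 (SE 0.463) for Adra2a, both with a limma adjusted p of 0.665. In the 10 libraries the interaction log2FC was 1.14 (limma adjusted p = 0.572) for Adra1d and -0.90 (limma adjusted p = 0.716) for Adra2a, and Adra2c then had -0.95 (SE 0.181, limma adjusted p = 0.172). A difference between oil and water was therefore not shown for any member after adjustment.

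Krill oil without stress was examined by comparing C_O with C_W. Adra2a was the only member that met the DEG criteria, where 1.76% of all genes tested did. Its groups overlapped, since C_O15 (3.02) was below C_W1 (3.04), and no member was separate between these groups, against 9.42% of all genes tested. The means of Adra2a were 5.51 ± 2.77 in C_O and 2.18 ± 1.12 in C_W, a ratio of 2.53, and the log2FC was 1.02 (SE 0.327, limma adjusted p = 0.908). Adra2a did not meet the criteria without C_O72, without C_W70 or in the 10 libraries (log2FC 0.70, SE 0.318), while without C_O15 Adra1d met them too. The log2FC of the other members was between -0.89 for Adra1d and 0.11 for Adra2b.

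Krill oil under stress was examined by comparing MS_O with MS_W. Adra1d was higher in all 3 MS_O mice (6.23 to 9.12) than in all 3 MS_W mice (1.99 to 4.01), the only member without overlap, where 12.3% of all genes tested had none. Its mean was 7.58 ± 1.46 in MS_O, a ratio to MS_W of 2.71, and its log2FC was 1.197 (SE 0.553, 95% confidence interval -0.03 to 2.42, limma adjusted p = 0.819). It thus narrowly missed the DEG criteria, which no member met and 2.81% of all genes tested did. In the 10 libraries, without MS_W95, Adra1d met them (log2FC 1.04, SE 0.295), as did 718 of 21393 genes tested. In the same libraries the log2FC of Adra2c was -0.60 (SE 0.128, limma adjusted p = 0.168). Adra1b had a log2FC of 0.39 and Adrb1 of 0.53 in the 12 libraries, with groups that overlapped. Adra2a differed little between MS_O (4.94 ± 0.907) and MS_W (5.60 ± 0.507), with a log2FC of -0.16 (95% confidence interval -0.89 to 0.56). The MS_W mice also entered the comparison with C_W, so the values of these comparisons are not independent.

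Over both treatments, 6 CUMS mice were compared with 6 unstressed mice. Adra1d (log2FC -0.88, SE 0.391) and Adra2b (log2FC 0.22, SE 0.0669) met the DEG criteria, where 2.90% of all genes tested did, with limma adjusted p of 0.397 and 0.316. The mean FPKM of Adra2b was 0.049 in C_W and 0.136 in C_O, against 0.311 in MS_W and 0.231 in MS_O. With 4 to 103 estimated counts per library, Adra2b passed the filter of 0.1 largely through the CUMS mice. Adra1d is close to the threshold, since its 95% confidence interval reached from -1.75 to -0.01. Under the alternatives given below, Adra1d met the criteria in only 8 of 21 and the low Adra2b in 19 of 20. For krill oil over both stress states, no member met the criteria, against 0.986% of all genes tested, and the members' log2FC was between -0.11 for Adra2c and 0.43 for Adra2a.

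Since several receptors are unevenly spread over the brain, markers of brain regions were set beside them. The summed FPKM of 8 cortex markers was 431.4, 469.0 and 454.2 in C_W, 405.9, 445.4 and 142.4 in C_O, 175.6, 175.7 and 78.7 in MS_W and 325.0, 262.4 and 312.2 in MS_O. The libraries low in cortex markers (the 3 MS_W libraries and C_O72) were also the 4 lowest in Adra1d. Hippocampus markers went the other way, with a summed FPKM of 6 markers of 5.66, 5.03 and 6.13 in C_W. In MS_W this sum was 8.52, 6.78 and 8.56, and in C_O72 it was 6.69. C_O15 and C_O30 had 4.86 and 4.59, and the MS_O mice 5.44, 6.92 and 7.30. For MS_W minus C_W, 6 of 8 cortex markers were without overlap and lower in MS_W, and 4 of 8 met the DEG criteria. Of 21393 genes tested, 1758 were without overlap and lower, 3494 without overlap and higher, and 983 met the DEG criteria. The summed FPKM of 8 striatum markers was 101.4, 48.8 and 53.0 in C_W, 173.9, 258.8 and 51.3 in C_O, 342.6, 515.9 and 63.1 in MS_W and 349.8, 182.7 and 145.4 in MS_O. Adra2c was highest in MS_W75 and MS_W31, which had 515.9 and 342.6 by these markers, and lowest in C_O72 and MS_W95, which had 51.3 and 63.1. The summed FPKM of 10 hypothalamus markers was 128.5 and 118.3 in MS_W31 and MS_W75 and at most 58.3 in the other libraries, and that of 7 astrocyte markers was 662.0 in C_O72 and 614.4 in MS_W95 and between 284.4 and 352.0 in the other 10. For MS_W minus C_W, 5 of 7 astrocyte markers were without overlap and higher and 1 was lower, while 0 of 7 met the DEG criteria. The astrocyte sums of MS_W31 (315.4) and MS_W75 (323.8) were near those of C_W (284.4 to 321.5). The summed FPKM of 5 neuron markers was 1162.1, 1174.1 and 1062.1 in C_W and 875.2, 875.3 and 751.1 in MS_W. Of these markers 4 of 5 were without overlap and lower in MS_W, while 0 of 5 met the DEG criteria. The neuron sum was between 891.8 and 1127.0 in C_O and between 967.4 and 1098.4 in MS_O. The part of these markers in the receptor differences was not tested.

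**Figure D4:**
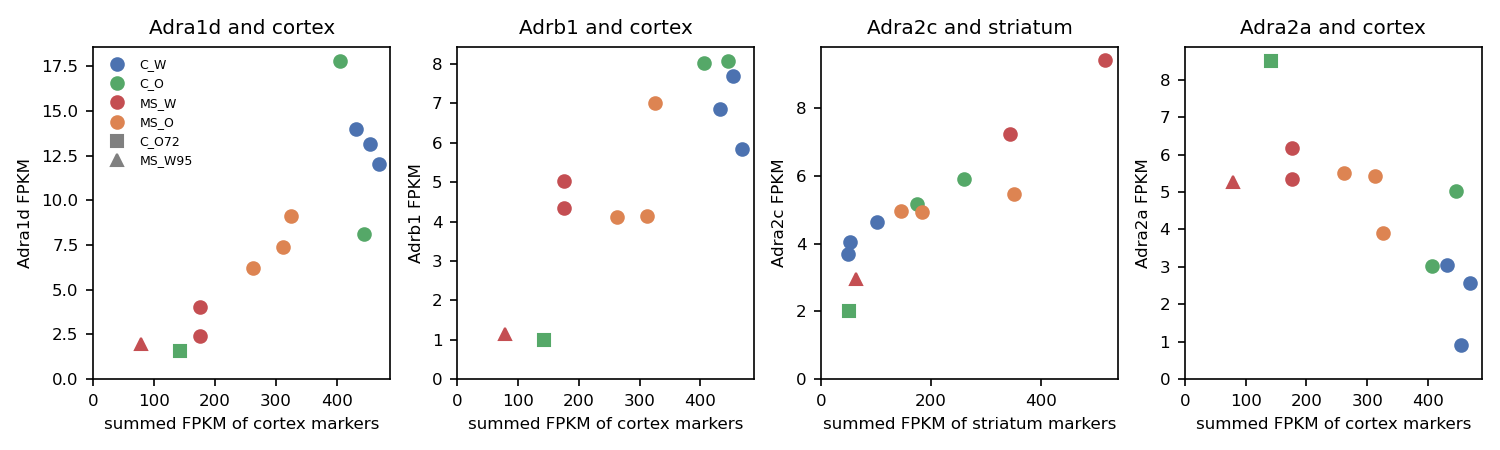
FPKM of Adra1d, Adrb1, Adra2c and Adra2a (vertical axes) against the summed FPKM of 8 cortex or 8 striatum markers (horizontal axes), with a point for each of the 12 libraries, colored by group. Libraries with cortex sums of at most 175.7 have an Adra1d FPKM of at most 4.01, and the MS_W75 library has both the highest striatum sum (515.9) and the highest Adra2c FPKM (9.44).

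The genes whose log2(FPKM + 1) followed each member most closely over the 12 libraries, among 13621 genes that averaged 1 FPKM or more, are given as a description. The closest to Adra1b was Ptgfrn (Pearson's r = 0.991), to Adra1d Klf13 (r = 0.987), to Adrb1 Camk2n1 and Chn1 (r = 0.989 for both) and to Adra2c Bcr (r = 0.980) and Gng7 (r = 0.956), a G protein γ subunit. Next came Camta2 for Adra1b (r = 0.968) and D1Ertd622e for Adra1d (r = 0.976). For Adra2a these were Gm27544 (r = 0.940) and Ppil1 (r = 0.931), for Adra2b Ddah1 (r = 0.930) and Tceal8 (r = 0.926), and for Adra1a Wdr83os (r = 0.887) and Gm47299 (r = 0.846). The 12 points share the 2 libraries that stood apart. In the 10 other libraries Ptgfrn was still the closest to Adra1b (r = 0.988) and Chn1 the closest to Adrb1 (r = 0.980), whereas other genes led for the remaining 5 members.

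The rest of the pathway was described with 5 gene lists. Of the genes that make, store, take up or break down noradrenaline or regulate noradrenergic neurons, 9 of 10 were tested. Ddc, which encodes the decarboxylase after tyrosine hydroxylase, met the DEG criteria as higher in MS_W than in C_W, with an FPKM of 1.14, 1.55 and 1.37 in C_W and 2.73, 3.19 and 8.81 in MS_W, and as lower in MS_O than in MS_W. MS_W95 gave the highest of these values and C_O72 reached 4.81. Th, which encodes tyrosine hydroxylase, the rate-limiting enzyme, met the criteria for MS_O minus C_O, with an FPKM of 10.4, 56.6 and 64.9 in MS_O and 0.841, 5.07 and 4.83 in C_O. Th is also made by cells of the olfactory bulb, and the summed FPKM of 7 olfactory bulb markers was 41.2, 235.7 and 238.1 in the same MS_O mice and 7.87, 31.3 and 4.46 in C_O. All 7 of these markers met the DEG criteria as higher in MS_O and had groups without overlap, where 3.57% and 12.2% of all genes tested did in either direction. The part of these markers in the difference of Th was not tested. Pnmt, which encodes the enzyme that turns noradrenaline into adrenaline, met them as higher in MS_O than in C_O and in MS_W, but its FPKM was at most 0.529.

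Of 9 tested genes of Gq and phospholipase C, the α1 route, and of 10 of Gi and Go, the α2 route, none met the DEG criteria in any of the 4 comparisons. Between 1.76% and 4.59% of all genes tested did, so few or none would in lists of this size at the same share. For MS_W minus C_W, 2 of the 10 Gi and Go genes were without overlap and higher and 4 lower. Of the 9 Gq genes 3 were without overlap and lower, where 24.6% of all genes tested had no overlap in either direction. The median log2FC for MS_W minus C_W was -0.10 in the Gq list and -0.18 in the Gi and Go list, beside 0.06 over all genes tested. Of 16 genes of Gs, adenylyl cyclase and protein kinase A, the β route, Gnal, a Gs-like subunit that is abundant in the striatum, met the criteria. Its FPKM was 13.6, 13.9 and 13.7 in C_W and 32.5, 42.7 and 15.97 in MS_W, with the lowest MS_W value in MS_W95. The median of this list was 0.13.

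Of 12 genes that shut receptors off, Rgs8, a regulator of G protein signaling that is abundant in Purkinje cells, met the criteria as higher in MS_W than in C_W and as lower in MS_O than in MS_W. Its FPKM was 7.34, 7.90 and 7.67 in C_W, 11.4, 15.4 and 82.1 in MS_W and 11.3, 5.93 and 6.85 in MS_O, and MS_W95, the library with the highest cerebellum markers, stood far above the rest. Arrb1, which encodes β-arrestin 1, met them as higher in MS_O than in C_O, with 5.38, 23.6 and 21.4 against 5.12, 4.799 and 3.49. In C_W the FPKM of Arrb1 was 21.6, 22.2 and 4.33, so a single group already covered both levels. Over both treatments, Th, Pnmt and Rgs9, a striatal regulator of G protein signaling that is also among the 8 striatum markers, met the criteria as higher in the CUMS mice. Of the 56 genes tested in the 5 lists, 9 had an unadjusted limma p under 0.05 for MS_W minus C_W, 5 for MS_O minus C_O, 1 for C_O minus C_W and 5 for MS_O minus MS_W, where 10.5%, 8.88%, 3.55% and 6.09% of all genes tested did. After adjustment 0 of the 56 passed 0.05 in any of these comparisons.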

How the data were processed

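Poly(A) RNA of 12 whole brains was sequenced. FPKM values and estimated count values per gene were both deposited by the authors, who filtered the reads (cutadapt 1.9), aligned them to mm10 with HISAT2 2.0.4 and assembled and quantified transcripts with StringTie 1.3.4d and Ballgown, per the methods and the submitters' processing notes, which also name edgeR and DESeq2. For 820 single-transcript genes with at least 500 estimated counts in every library, these estimates follow from FPKM, transcript length and 1 scale for each library to within 0.0133% (median), so they restate coverage and do not count reads. Whether strand was used is not given in the sources used here. The kit marks strand with dUTP.

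Groups followed the labels. Log2(FPKM + 1) of the 21393 genes that averaged at least 0.1 FPKM was fitted with limma 3.58.1 (lmFit, eBayes with trend, R 4.3.3), in 1 fit of the 4 groups without covariates, with Benjamini-Hochberg adjustment over the genes tested. The study states separate mice, so the spread is between animals. Comparing 3 mice with 3, an exact permutation test cannot reach a p of 0.05. The ratio of group mean FPKM served for the DEG criteria. Estimated counts were rounded for edgeR 4.0.16 (quasi-likelihood) and DESeq2 1.42.0, used as alternatives. The other alternatives were the pseudocount, the filter, quantile, median and total scaling, fits of only the groups compared and leaving out libraries. Fits were tested on simulated data.

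The values of 1 gene of the lists are not reported here. The members, the gene lists and the 10-library alternative were chosen with earlier results of these data known. All members were named, with the pathway genes that met the DEG criteria (at most 3 higher and 3 lower per comparison) and the 2 genes most like each member. Gene positions were those of the authors' table and equal GENCODE vM21 for the 7 members. Promoter windows were from RefSeq (GRCm38.p6), and 5 members matched. Python 3.11.15, pandas 2.3.3 and matplotlib 3.10.9 were used for tables and figures.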

Additional observations from a re-analysis of the deposited data

How the results depend on the processing

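The number of members meeting the DEG criteria for MS_W minus C_W was 4 and stayed within 1.5 times that number under every alternative, with 3 to 5 when each library was left out. With each library left out, between 746 (without C_W70) and 1205 (without C_O72) of 21393 genes tested met them. For C_O minus C_W the number of members was 1 with 12 libraries, 0 in the 10 libraries, and 0 to 2 with each library left out (0 without C_W70 or C_O72, 2 without C_O15). Of 21393 genes tested, 350 met the criteria in the 10 libraries, and 321, 251 and 888 without C_W70, C_O72 and C_O15. For MS_O minus C_O the number of members was 0, and 0 to 1 with each library left out (1 without C_O30, Adra2b). Without C_O30, 1123 of 21393 genes tested met the criteria. For MS_O minus MS_W the number of members was 0 with 12 libraries, but 1 (Adra1d) in the fit of only the groups compared, with edgeR, with DESeq2, in the 10 libraries, and without C_O15 or C_O72, a range of 0 to 1. In these alternatives 520, 566, 669, 718, 588 and 720 of 21393 genes tested met the criteria, in the same order. For CUMS over both treatments the number of members was 2, but 1 with a pseudocount of 0.1, without a filter, with a mean FPKM of at least 1, with libraries centred on their median and with FPKM rescaled to the same total, and 1 to 2 with each library left out (1 without any single one except C_O72 and MS_W31). Of 21393 genes tested, 597 met the criteria with the pseudocount of 0.1, 785 with centred libraries and 630 with rescaled FPKM. Without a filter 1069 of 35074 genes did, and with a mean FPKM of at least 1 185 of 13621. With each library left out, 426 (without MS_O46) to 919 (without MS_O13) of 21393 did. Adra2b lost the call only with centred libraries, and the other drops were of Adra1d, apart from the higher filter. The number of members with an unadjusted interaction p under 0.05 was 2, 3 with DESeq2, and 1 to 3 with each library left out (1 without C_W70, C_O72 or MS_W31, 3 without C_O15 or MS_O46). Of 21393 genes tested, 2135 were under 0.05 with DESeq2, and 1248, 1200 and 1740 without C_W70, C_O72 and MS_W31. Without C_O15 and MS_O46 these were 2186 and 1172. With a mean FPKM of at least 1, Adra1a and Adra2b were not tested, so all numbers of members under that filter are out of 5.

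Of 1043 log2FC values of members under alternatives, 46 had the other sign than with 12 libraries in the main test, none of them past an adjusted p of 0.05 in either. An adjusted p under 0.05 was reached only for Adra1d, Adra1b and Adra2c. For MS_W minus C_W these were Adra1d in the fit of only the groups compared (0.0239), with DESeq2 (0.0215), in the 10 libraries (0.0344) and without C_O72 (0.0230), with a range of 0.0215 to 0.673 over all alternatives, Adra1b in the fit of only the groups compared (0.0380, range to 0.683) and Adra2c in the 10 libraries (0.0227, range to 0.874). Of 21393 genes tested, those under 0.05 for MS_W minus C_W were 121 in the fit of only the groups compared and 389 with DESeq2. There were 246 in the 10 libraries and 101 without C_O72. For CUMS over both treatments Adra1d reached 0.049998 in the 10 libraries, where 163 of 21393 genes tested were under 0.05. The cause of these changes was not tested. No paired analysis was possible because no mouse number is shared between groups. Depth limits Adra2b, with 4 to 103 estimated counts per library, and 3 mice per group limit all members.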
